A study of Mus musculus with 12 samples.

Results

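Embryoid bodies at day 3 were compared with embryoid bodies at day 1 across 17533 genes. Embryoid bodies (EB) are floating aggregates in which embryonic stem cells differentiate together. The members are the 4 arrays whose titles name EB day 1 or EB day 3, out of 12 arrays in the series, with 2 arrays for each day. All samples are mouse embryonic stem cells of strain 129, and no genotype, transgene, medium or added factor is given in the labels. The other 8 arrays hold undifferentiated cells, EB day 4, and monolayer cultures (ML) at days 1 and 3, and ML is used here for comparison. The source labels number the arrays of each day as clone 1 and clone 2, and the series' design text speaks of separate experiments by different people, so whether equal numbers mark the same cells is not settled. The EB arrays are called day 1 clone 1, day 1 clone 2, day 3 clone 1 and day 3 clone 2 here.

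In the mouse embryo, the epiblast gives rise to mesoderm and definitive endoderm through the primitive streak, where cells lose epithelial contacts and migrate. Wnt, Nodal, BMP and FGF ligands set up the streak, and T-box, homeobox and GATA transcription factors carry out its programme, while secreted antagonists such as Cer1 and Dkk1 limit those ligands. Embryonic stem cells in aggregates leave the naive state, pass through an epiblast-like state and then express streak genes. The comparison sets day 3 against day 1, and no cells were followed through that passage.

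Values are log2 signals relative to each array's 75th percentile, so 0 is the 75th percentile of that array, and a change is the mean at day 3 minus the mean at day 1 ± SE with 2 arrays a day. The 4 EB arrays shared 1 slide and 1 scan day, with the day 1 arrays in positions 1 and 2 and the day 3 arrays in positions 3 and 4. Between 56.3% and 60.2% of their spots were well above background, and the 2 arrays of a day correlated across genes at 0.992 for day 1 and 0.985 for day 3. At least 2-fold differences between the 2 arrays of a day were found for 592 genes at day 1 and 1440 at day 3. In all 4 arrays every one of the 4 embryonic stem cell markers (Pou5f1, Sox2, Nanog and Zfp42) and the 4 post-implantation epiblast markers (Fgf5, Otx2, Pou3f1 and Dnmt3b) was well above background. The labels do not say that the 2 arrays of a day came from separate cultures beyond their clone numbers. The series' design text speaks of separate experiments, which does not settle what the numbers mark. P-values are therefore taken to measure the spread between arrays, pooled over 6 groups. In RNA from whole aggregates, fewer cells of a type and less RNA per cell cannot be told apart.

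At day 3, 551 genes were higher than at day 1 (3.14% of genes tested) and 412 were lower (2.35%), together 963 (5.49%), at a limma adjusted p under 0.05. The median size of the change was 2.04 on the log2 scale among the higher genes and 1.78 among the lower genes, against a median of -0.08 over all genes. Changes above 4 on the log2 scale were found for 54 of the higher genes and for 3 of the lower genes, so the large changes lay mostly on the side of gain. For 134 of the higher genes the day 1 arrays were not well above background, and for 70 of the lower genes the day 3 arrays were not. Such genes are given as a bound of at least N-fold, measured against the lowest signal well above background on the dim arrays. Of the higher genes 17 passed the filter on dim probes through EB day 3 alone, and of the lower genes 6 through EB day 1 alone, so that the filter itself favoured those calls. The number of calls rested on 3 of the arrays: it was 216 without day 1 clone 1, 103 without day 1 clone 2, 110 without day 3 clone 2 and 996 without day 3 clone 1. With each of the 4 arrays left out in turn, 57 of the higher genes and 17 of the lower genes kept their call every time. Both day 3 arrays stood above both day 1 arrays for 25.1% of all genes and below them for 34.5%. The days were apart in this way for all of the 551 higher and 412 lower genes. For a called gene this separation is therefore no further support. The shares over all genes given here are the ones to set beside the list counts below.

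**Figure D1:**
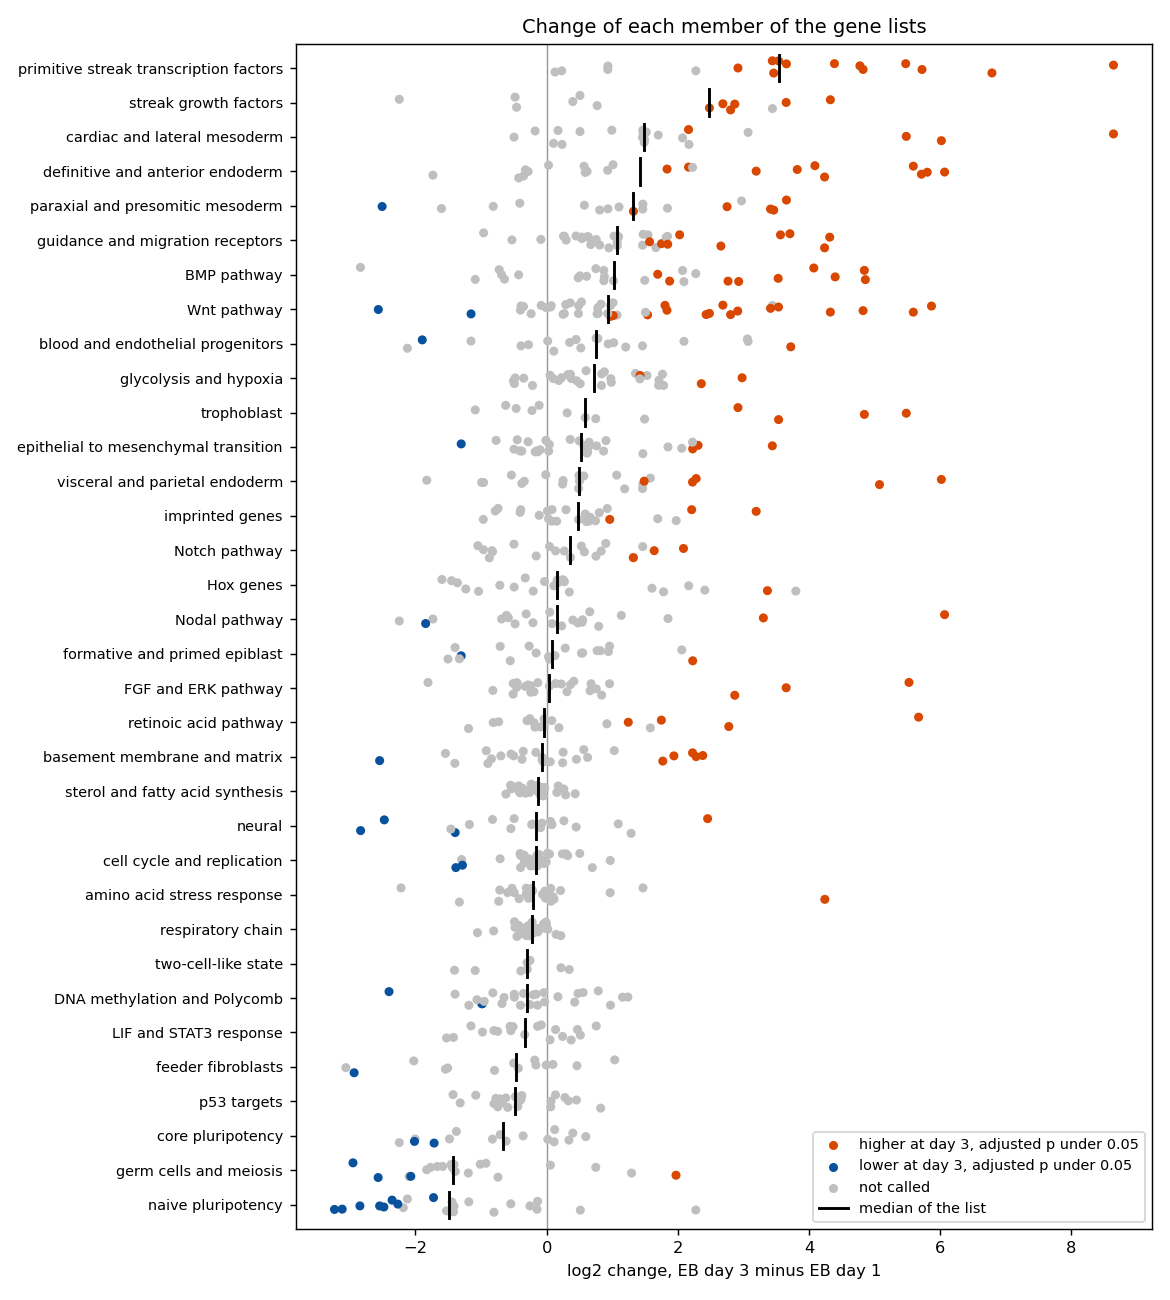
Log2 change (EB day 3 minus EB day 1, horizontal axis) of every tested member of the 34 gene lists, ordered by the list's median (black bar). Orange points passed the test as higher, blue as lower and grey points were not called. Primitive streak transcription factors had the highest median (3.54) and naive pluripotency the lowest (-1.48).

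Mesp1, a transcription factor of nascent mesoderm, had the largest change of all genes tested. Its signal was -4.57 and -4.86 at day 1, and 2.89 and 4.96 at day 3, in clone 1 and clone 2 in that order. Both day 3 arrays were far above both day 1 arrays, and the day 3 arrays differed from each other by more than the day 1 arrays did. The change was 8.64 ± 0.68 (limma adjusted p = 0.00116). The probe lies on chromosome 7, 86937337 to 86937396 (build mm9). Lhx1, a LIM homeobox gene of mesendoderm and axial mesoderm, stood at -0.82 and -2.45 at day 1 and at 5.01 and 5.29 at day 3. The day 3 arrays agreed closely and the day 1 arrays did not, with day 1 clone 1 the higher. The change was 6.79 ± 0.56 (limma adjusted p = 0.00121, probe on chromosome 11, 84333091 to 84333150). Lhx1os, a non-coding transcript whose probe lies on the same chromosome at 84349186 to 84349245, rose with it by 5.73 ± 0.71. Lhx1 kept its call with each array left out, and Lhx1os did not.

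Of 18 transcription factors of the primitive streak, 17 were tested, 12 rose and 5 were not called, with a median change of 3.54. In 14 of the 17, both day 3 arrays were above both day 1 arrays, against 25.1% of all genes tested. Evx1, a homeobox gene of the posterior streak, went from -3.60 and -4.59 to 1.17 and 2.09 (change 5.72 ± 0.54). Mixl1, a homeobox gene of mesendoderm, went from -5.21 and -6.24, neither well above background, to -0.02 and -0.48, at least 27.5-fold higher. Gsc, the organizer homeobox gene, went from 0.23 and -1.70 to 4.28 and 3.80. Sp5, a transcription factor induced by Wnt signals, went from 2.02 and -0.81 to 5.42 and 5.43, so that the day 1 arrays differed by more than 2 log2 units and the day 3 arrays by almost nothing. T (Brachyury), the T-box gene of the streak, went from -1.16 and -3.42 to 2.00 and 2.20 with the same pattern. Mesp2, the neighbour of Mesp1 on chromosome 7, rose by 3.66 ± 0.41 to -0.42 and 0.99. At day 1, clone 1 was above clone 2 for 15 of the 17 factors (median 0.86 on the log2 scale), against 10310 of the 17533 genes tested. Without day 1 clone 1, day 1 clone 2 or day 3 clone 2 the number that rose was 10, 9 and 7, and T and Sp5 lost their calls without day 3 clone 2 and in the fit of these 4 arrays alone.

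**Figure D2:**
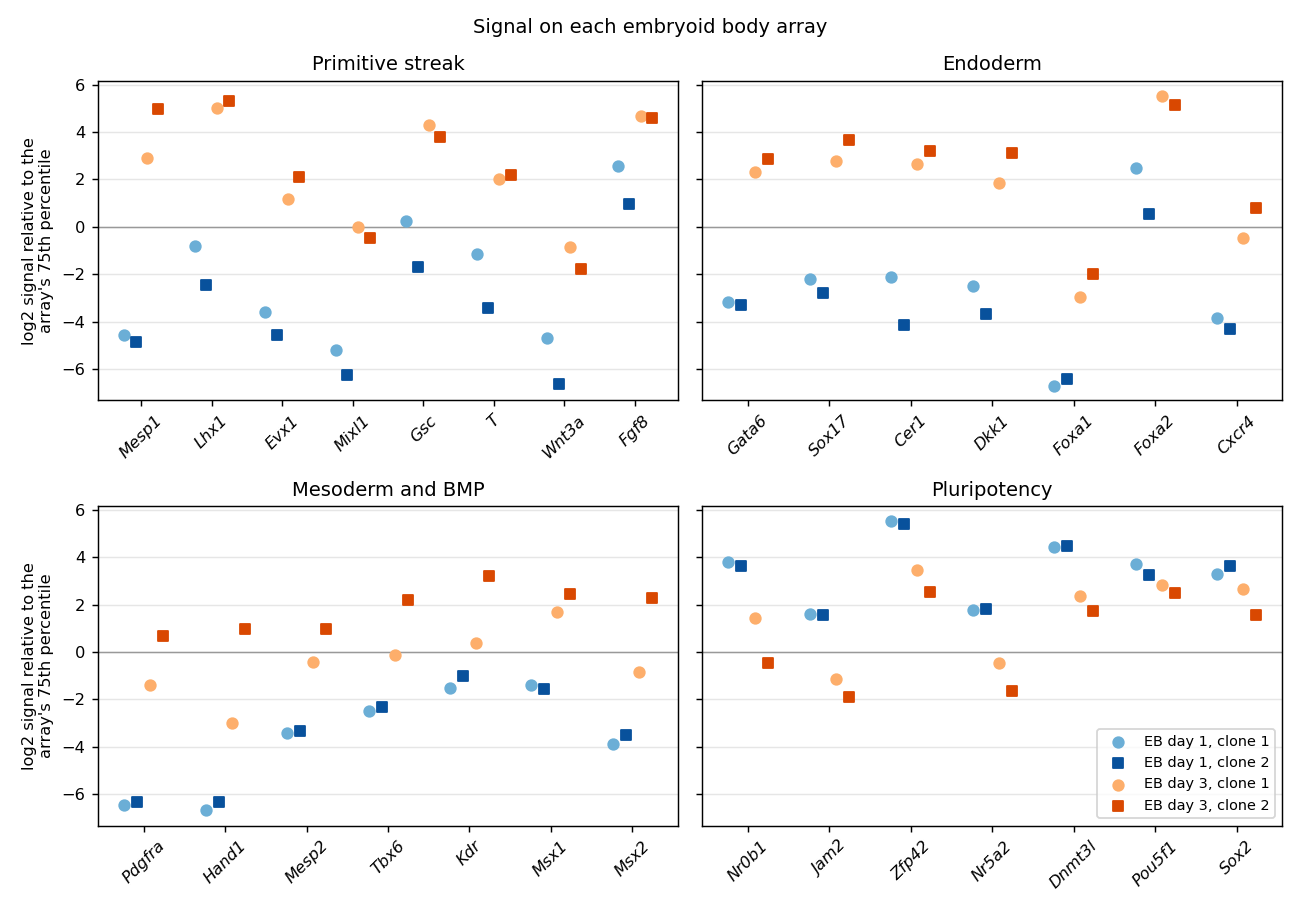
Log2 signal relative to the array's 75th percentile (vertical axis) on each of the 4 EB arrays, for genes of the primitive streak, endoderm, mesoderm and BMP pathway, and pluripotency. Blue points are day 1 and orange points day 3, with circles for clone 1 and squares for clone 2. The day 3 points of Mesp1 (2.89 and 4.96) and Lhx1 (5.01 and 5.29) are far above day 1, and those of Jam2 (-1.14 and -1.91) are below it.

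The promoter windows of Mesp1, Evx1 and Cer1 are shown for genes that rose together and that of Zfp42, a naive-state gene, for one that fell. Each is a 300-base window around the annotated start from RefSeq (build GRCm38.p6), printed 5′ to 3′ on the strand of the gene. Capitals mark matches, on either strand, to 6 short motifs: the T-box half-site TCACAC, the homeobox core TAATTA, the TCF/LEF core CTTTGAT, the GATA core AGATAA, the octamer ATGCAAAT (its reverse complement is ATTTGCAT) and the SOX core ACAATG. None of the motifs contains another.
Mesp1 (chr7:79793541-79793840, minus strand): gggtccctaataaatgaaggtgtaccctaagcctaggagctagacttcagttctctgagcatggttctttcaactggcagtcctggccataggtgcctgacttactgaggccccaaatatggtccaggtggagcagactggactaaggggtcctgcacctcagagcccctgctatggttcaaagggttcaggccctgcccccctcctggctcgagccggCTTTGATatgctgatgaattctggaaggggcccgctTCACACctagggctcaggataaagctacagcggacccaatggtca
Evx1 (chr6:52313248-52313547, plus strand): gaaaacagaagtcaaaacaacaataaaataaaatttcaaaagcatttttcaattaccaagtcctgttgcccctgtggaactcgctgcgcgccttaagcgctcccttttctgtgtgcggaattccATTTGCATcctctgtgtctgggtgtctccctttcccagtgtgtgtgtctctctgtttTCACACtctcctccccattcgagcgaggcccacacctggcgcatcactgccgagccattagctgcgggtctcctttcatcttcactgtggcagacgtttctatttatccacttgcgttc
Cer1 (chr4:82885102-82885401, minus strand): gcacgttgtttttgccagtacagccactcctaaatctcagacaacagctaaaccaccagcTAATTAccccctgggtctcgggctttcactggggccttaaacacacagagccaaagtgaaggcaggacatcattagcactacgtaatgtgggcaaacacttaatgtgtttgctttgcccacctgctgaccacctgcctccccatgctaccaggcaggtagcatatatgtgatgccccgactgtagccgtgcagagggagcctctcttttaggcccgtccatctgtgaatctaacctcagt
Zfp42 (chr8:43306960-43307259, minus strand): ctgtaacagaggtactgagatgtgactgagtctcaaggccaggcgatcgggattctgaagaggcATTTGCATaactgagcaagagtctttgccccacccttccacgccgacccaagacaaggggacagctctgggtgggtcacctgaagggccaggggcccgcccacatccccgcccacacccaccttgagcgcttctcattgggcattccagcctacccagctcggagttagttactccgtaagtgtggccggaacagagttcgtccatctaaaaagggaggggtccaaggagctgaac

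These matches are a description of the letters only. Windows could be matched for 392 of the 551 higher genes, 289 of the 412 lower genes and 11966 of the 17533 genes tested. The T-box half-site was in 10.9% of the windows of higher genes, 12.7% of those of lower genes, 11.3% of those of all genes tested and 14.5% of all 32851 windows. CTTTGAT was in 4.57% of the windows of higher genes, 2.98% of lower genes, 2.64% of genes tested and 3.73% of all windows. ATGCAAAT was in 1.59% of the windows of higher genes, 3.25% of lower genes, 1.39% of genes tested and 1.74% of all windows. TAATTA was in 4.17%, 5.69%, 3.08% and 5.29% of them in the same order. A ratio of observed to expected CpG above 0.6 was found in 55.5% of the windows of higher genes, 39.0% of lower genes and 62.7% of genes tested. The Mesp1 window had a ratio of 0.17, the Cer1 window 0.31, the Zfp42 window 0.44 and the Evx1 window 0.71.

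Among ligands that act in the streak, 13 of 14 were tested, 6 rose and 7 were not called, with a median change of 2.48. Wnt3a went from -4.68 and -6.62 to -0.86 and -1.79, and Wnt3, the Wnt ligand needed to form the streak, from 0.76 and -0.45 to 2.90 and 2.79. Fgf8, the FGF ligand of the streak, went from 2.56 and 0.96 to 4.69 and 4.57. For all 3 ligands day 1 clone 1 was above day 1 clone 2. Fgf3 (3.65 ± 0.57), Wnt11 (2.80 ± 0.49) and Wnt5b (2.48 ± 0.36) also rose. Nodal, the ligand upstream of streak formation, was already high and not called (3.86 and 3.82, then 3.86 and 2.86), and neither was its co-receptor gene Tdgf1 (change 0.40 ± 0.42). The number that rose was 5, 1 and 2 without day 1 clone 1, day 1 clone 2 and day 3 clone 2, and Wnt3a kept its call each time.

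Secreted antagonists of those ligands differed among themselves. Cer1, a secreted inhibitor of Nodal, BMP and Wnt ligands, went from -2.12 and -4.15 to 2.65 and 3.22 (6.07 ± 0.58, limma adjusted p = 0.00201). Frzb, a secreted Wnt-binding protein, went from -3.87 and -4.91 to 1.04 and 1.91 (5.87 ± 0.85). Dkk1, which blocks the Wnt co-receptor, went from -2.52 and -3.69 to 1.84 and 3.12 (5.59 ± 0.59). Cer1 and Dkk1 kept their calls with each array left out, while Frzb lost its call without day 1 clone 2 or day 3 clone 2. Cfc1, a co-receptor of Nodal, rose by 3.30 ± 0.31, whereas Lefty2, a Nodal inhibitor, fell by 1.84 on the log2 scale (3.43 and 3.07, then 1.65 and 1.16) and lost its call without day 1 clone 1, day 1 clone 2 or day 3 clone 2. Lefty1 stood at 5.0 and 4.65 at day 1 and at 4.46 and 1.74 at day 3, so that only day 3 clone 2 was low, and it was not called. In the whole Nodal list of 22 tested genes 2 rose and 1 fell (median 0.16), whereas 3.14% of all genes tested rose and 2.35% fell.

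Of 43 tested genes of the Wnt pathway 16 rose and 2 fell, with a median of 0.93. Besides the genes above they included Lgr5, a receptor for R-spondins (3.53 ± 0.45), Fzd1, a Wnt receptor (2.91 ± 0.49), and the ligand gene Rspo3, which was at least 3.85-fold higher. The number that rose was 9 without day 1 clone 1, 3 without day 1 clone 2 and 3 without day 3 clone 2. Of 27 tested genes of the BMP pathway 9 rose and 18 were not called, with a median of 1.02. Msx1, a homeobox target of BMP, went from -1.37 and -1.54 to 1.68 and 2.46, and Msx2 from -3.86 and -3.48 to -0.83 and 2.29. Bmper, which modulates BMP ligands, was at least 29.0-fold higher, and Bmp2 at least 4.89-fold higher. Bmp7 (2.93 ± 0.65), the inhibitory Smad6 (2.77 ± 0.60) and the transducer Smad1 (1.88 ± 0.33) rose too. Bmp4 stood at -0.39 and -1.32 at day 1 and at -1.55 and 0.86 at day 3, so the days overlapped. The count of 9 was 1, 1 and 2 without day 1 clone 1, day 1 clone 2 and day 3 clone 2, and was 12 without day 3 clone 1. Msx1 kept its call in each of these fits.

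Of 27 tested genes of the FGF and ERK pathway 3 rose and 24 were not called (median 0.04), and the 3 were all ligands. Fgf10 joined Fgf3 and Fgf8: it went from -6.24 and -6.73, not well above background, to -1.89 and -0.03, at least 16.8-fold higher. Fgf5 (4.06 and 3.46, then 5.11 and 4.33) and the feedback phosphatase gene Dusp4 (change 0.37 ± 0.37) were not called. In the Notch pathway 3 of 21 rose, namely Nrarp (2.09 ± 0.37), Hes1 (1.64 ± 0.31) and Lfng (1.32 ± 0.31), and all 3 lost their calls without day 1 clone 1, day 1 clone 2 or day 3 clone 2. In the retinoic acid pathway 4 of 18 rose and 14 were not called. Cyp26a1, the enzyme that degrades retinoic acid, went from -0.47 and -2.50 to 3.76 and 4.61 (5.67 ± 0.68) and kept its call with each array left out. Rarb, a retinoic acid receptor, was at least 2.34-fold higher. The number that rose was 1 without each of those 3 arrays.

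Endoderm genes rose beside the streak genes. Of 22 genes of definitive and anterior endoderm, all tested, 10 rose and 12 were not called, with a median of 1.42. Gata6, a GATA factor of endoderm and mesendoderm, went from -3.16 and -3.30 to 2.30 and 2.84 (5.80 ± 0.45, limma adjusted p = 0.00116). Sox17, which specifies endoderm, went from -2.19 and -2.80 to 2.76 and 3.67 (5.71 ± 0.52, limma adjusted p = 0.00197, probe on chromosome 1, 4481503 to 4481562). In both genes the arrays of each day lay within 1 log2 unit of each other and the days were about 5 units apart. Foxa1 was at least 5.89-fold higher, from -6.71 and -6.41 to -2.96 and -1.99. Foxa2, a forkhead factor of endoderm and the organizer, went from 2.47 and 0.54 to 5.50 and 5.15, a gain that lost its call without day 1 clone 2, day 3 clone 1 or day 3 clone 2. The chemokine receptor gene Cxcr4 (4.24 ± 0.61) and the protease gene Tmprss2 (3.19 ± 0.55) also rose. The number that rose was 7 without day 1 clone 1, 5 without day 1 clone 2 and 5 without day 3 clone 2. Gata6, Sox17 and Foxa1 kept their calls in all 4 fits. The Gata6 values are those of its brightest probe. Another of its probes changed by 4.54 (limma adjusted p = 0.00432), and a further one by only 0.55 (limma adjusted p = 0.458).

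Genes listed under visceral and parietal endoderm, the extraembryonic endoderm, had fewer calls: 5 of 23 rose and 18 were not called, with a median of 0.50. Gata6 and Sox17 were not on this list, so the contrast depends on how genes were assigned. Which kind of endoderm the gains came from was not tested. Pdgfra, a receptor of both extraembryonic endoderm and paraxial mesoderm, was at least 25.5-fold higher (-6.44 and -6.31, then -1.40 and 0.68). Spink1, a secreted trypsin inhibitor, went from -1.35 and -1.14 to 3.48 and 4.18. The basement membrane collagens Col4a1 (2.28 ± 0.34) and Col4a2 (2.22 ± 0.41) rose together, and so did Emb (1.49 ± 0.25). Among 7 markers of primitive and visceral endoderm, Apoa1 and Ttr did not pass the filter on dim probes, Afp was not well above background at day 1, and Gata4 was the only one called. The summed linear signal of the 5 tested was 0.53 and 0.82 at day 1 and 0.66 and 0.70 at day 3, in units of the array's 75th percentile. That sum mixes changes of both signs. Amn and Cubn, the brightest of the 5 at day 1, changed by -0.38 and -0.99. Gata4 changed by 2.16, Sox7 by 1.46 and Afp by 1.07. The number of the 23 that rose was 3, 2 and 2 without day 1 clone 1, day 1 clone 2 and day 3 clone 2, and Pdgfra and Spink1 kept their calls.

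Mesoderm genes were also covered by 3 further lists with positive medians, not all of them separate from the streak list. Mesp1 (8.64), which kept its call with each array left out, is counted in the cardiac and lateral list. The largest change in the paraxial list (3.66) is that of Mesp2. Of 21 tested genes of cardiac and lateral mesoderm 4 rose (median 1.49). Of 17 tested genes of paraxial and presomitic mesoderm 5 rose and 1 fell (median 1.32). Of 21 tested genes of blood and endothelial progenitors 1 rose and 1 fell (median 0.75). The blood and endothelial calls are 4.76% each way, near the 3.14% higher and 2.35% lower over all genes tested. Hand1, a transcription factor of lateral and extraembryonic mesoderm, stood at -6.66 and -6.33 at day 1, not well above background, and at -3.0 and 0.96 at day 3, at least 16.2-fold higher on average. Kdr, the VEGF receptor of early mesoderm, stood at -1.53 and -1.02 at day 1 and at 0.40 and 3.20 at day 3, and was not called (3.07 ± 0.96, limma adjusted p = 0.107). Tbx6, the T-box gene of presomitic mesoderm, went from -2.50 and -2.33 to -0.11 and 2.21 (3.46 ± 0.69). In each of these genes day 3 clone 2 was the higher array by more than 2 log2 units. Over the cardiac and lateral list day 3 clone 2 was higher in 20 of 21 genes, by a median of 1.72, whereas at day 1 clone 1 was higher in 12 of 21. Over all genes tested these counts were 7894 and 10310 of 17533. Without day 3 clone 1 the cardiac and lateral list had 10 genes that rose, and without each of the other 3 arrays it had 2. Paraxial genes that rose numbered 2, 1 and 1 without day 1 clone 1, day 1 clone 2 and day 3 clone 2.

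Among other mesoderm genes the 2 arrays of a day lay close together for Flt1, but Gata4 stood at -3.85 and -2.23 at day 3. Foxc1, a forkhead factor of paraxial mesoderm, rose by 2.75 ± 0.57, and Gata4, a GATA factor of heart and endoderm, by 2.16 ± 0.46, and both lost their calls without day 1 clone 1, day 1 clone 2 or day 3 clone 2. Flt1, the other VEGF receptor, went from 0.13 and -0.28 to 3.49 and 3.81 (3.72 ± 0.30, limma adjusted p = 0.00121) and kept its call in every fit with 1 array left out. Tek, an endothelial receptor, fell and was at least 2.47-fold lower, while another of its probes changed by -0.68 (limma adjusted p = 0.567). Tcf15, a basic helix-loop-helix factor of paraxial mesoderm that is also present in the epiblast, fell from 5.35 and 5.53 to 3.38 and 2.49, against the other called members of its list, and lost its call with each array left out. Of the 4 blood markers Hba-x did not pass the filter on dim probes, and Hbb-bh1, Gata1 and Tal1 were not called.

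Hox genes had 1 call. Of 34 on the list 23 were tested, 8 of these were not well above background at either day, 1 rose and 22 were not called (median 0.16). The share that rose was 4.35%, near the 3.14% over all genes tested. The gene that rose was Hoxb3, from -3.92 and -3.91 to -0.99 and -0.10 (3.37 ± 0.41), and it was not called when the probes of a gene were averaged. Hoxb1 was at -6.03 and -5.68 at day 1, not well above background, and at -3.02 and -1.09 at day 3, and was not called (limma adjusted p = 0.0641). Hoxb2 stood at -4.33, -4.06 and -4.32 on day 1 clone 1, day 1 clone 2 and day 3 clone 1 and at 0.26 on day 3 clone 2. Among imprinted genes 3 of 25 rose and 22 were not called. Igf2, a growth factor gene, went from -0.18 and -0.31 to 1.80 and 4.10, and H19, its non-coding neighbour on chromosome 7, from -0.31 and -0.74 to 1.62 and 1.76. Gnas rose by 0.96 ± 0.22. None of these 3 kept its call without day 1 clone 1, day 1 clone 2 or day 3 clone 2.

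Naive pluripotency genes moved the other way. Of 24 on the list 22 were tested, 8 fell and 14 were not called, with a median of -1.48. In 18 both day 3 arrays were below both day 1 arrays, against 34.5% of all genes tested. Nr0b1 (Dax1), a nuclear receptor of the naive network, went from 3.81 and 3.63 to 1.43 and -0.45 (-3.23 ± 0.73). Jam2, an adhesion molecule gene, went from 1.6 and 1.58 to -1.14 and -1.91 (-3.12 ± 0.34, limma adjusted p = 0.0029) and alone of the 8 kept its call with every array left out. The nuclear receptor gene Nr5a2 went from 1.77 and 1.83 to -0.44 and -1.64, and Zfp42 (Rex1), a zinc finger gene of the naive state, from 5.54 and 5.42 to 3.46 and 2.54. The day 1 arrays agreed closely in all 4 genes, and day 3 clone 2 was the lower array in each. Spp1 (-2.54 ± 0.33), Tdh (-2.35 ± 0.54), Tcl1 (-2.27 ± 0.37) and Manba (-1.72 ± 0.30) fell as well. Across the list day 3 clone 1 was above day 3 clone 2 in 19 of 22 genes (median 0.76), against 9638 of the 17533 genes tested. The number that fell was 2, 2 and 1 without day 1 clone 1, day 1 clone 2 and day 3 clone 2, and 9 without day 3 clone 1.

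Core pluripotency genes had fewer calls. Of 16 tested 2 fell, Dppa4 (-2.01 ± 0.39) and Dppa5a (-1.71 ± 0.41), and 14 were not called (median -0.66), and neither call held without day 1 clone 1, day 1 clone 2 or day 3 clone 2. Pou5f1 (Oct4) was at 3.72 and 3.24 at day 1 and at 2.83 and 2.48 at day 3, and Sox2 at 3.31 and 3.65, then 2.65 and 1.56. Both had all day 3 values below all day 1 values, and neither passed the test (limma adjusted p = 0.216 and 0.0549). Among 20 formative and primed epiblast genes 1 rose, Cdh2 (2.23 ± 0.55), and 1 fell, Grhl2 (-1.30 ± 0.30), with a median of 0.09. Each is 5.0% of the list, near the 3.14% higher and 2.35% lower over all genes tested. Pou3f1 (Oct6) stood at 6.76 and 7.32, then 6.07 and 5.0, and was not called. Of 28 genes of DNA methylation and Polycomb 3 fell and 25 were not called: Dnmt3l, the cofactor of the de novo methyltransferases, went from 4.42 and 4.47 to 2.37 and 1.72 (-2.40 ± 0.33), and Mtf2 (-0.99 ± 0.22) and Tet1 (-0.98 ± 0.23) fell by less. Dnmt3l lost its call without day 1 clone 2 or day 3 clone 2, and Mtf2 and Tet1 lost theirs with each array left out.

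Of 20 tested germ cell and meiosis genes 3 fell, 1 rose and 16 were not called, with a median of -1.42. Hormad1, a meiotic chromosome axis gene, fell and was at least 5.80-fold lower, Stra8, the meiotic entry gene, fell by 2.57 on the log2 scale, and Stk31 was at least 2.81-fold lower. Kit, the receptor of germ cell and blood progenitors, rose by 1.97 ± 0.40. The 5 germ cell markers (Prdm1, Dppa3, Nanos3, Dazl and Ddx4) were well above background on all 4 arrays, and none was called. No call in this list held without day 1 clone 1, day 1 clone 2 or day 3 clone 2.

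The largest decreases outside the lists named genes of varied function. Lce1g, a skin barrier protein gene, was at least 5.98-fold lower, and Lce1i, a near copy of it on chromosome 3, at least 1.94-fold lower. The Lce1g value rests on 1 probe, and another probe of the gene changed by only -0.13 (limma adjusted p = 0.892). Such near copies can share signal on 1 probe. Accsl, a homologue of a plant ethylene synthesis enzyme, went from -1.19 and -0.80 to -4.63 and -5.55 (-4.09 ± 0.45). Slc5a11, an inositol transporter gene, went from 1.16 and 1.46 to -1.76 and -2.86, and Morc1, a gene of germ line silencing, from 2.77 and 2.90 to 0.11 and -0.65. Accsl, and Lce1g on the probe given, kept their calls with each array left out. Mmp13, a collagenase gene that passed the filter through EB day 1 alone, was at least 7.87-fold lower, and the adhesion gene Tnc at least 5.38-fold lower, and neither kept its call without day 1 clone 1, day 1 clone 2 or day 3 clone 2. Prdm6, a gene of the PR-domain family, went from -5.98 and -5.79, not well above background, to -0.18 and 2.81, at least 81.0-fold higher, and lost its call without day 1 clone 1, day 1 clone 2 or day 3 clone 2. Other large increases outside the lists were those of Prss12, a secreted protease gene (-3.64 and -4.31, then 0.97 and 2.49), and of Wnt2, at least 33.5-fold higher. Prss12 kept its call with each array left out, and Wnt2 did not.

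Adhesion and migration genes changed in part. Snai1, the repressor of E-cadherin that acts in streak cells, went from -1.38 and -1.52 to 1.40 and 2.58 (3.44 ± 0.39, limma adjusted p = 0.00333). In its list of 32 genes of the epithelial to mesenchymal transition 3 rose, with Krt8 (2.31 ± 0.53) and Cdh2, and 1 fell, Grhl2, an epithelial factor (median 0.53). Snai1 was the only one of them to keep its call with each array left out, and Cdh1 (E-cadherin) was at 4.75 and 4.76, then 4.94 and 4.27. Of 36 tested guidance and migration receptors and ligands 9 rose and 27 were not called (median 1.08). Over all genes tested 3.14% rose. In 27 of the 36 both day 3 arrays were above both day 1 arrays, against 25.1% of all genes. Nrp1, a semaphorin and VEGF co-receptor, was at least 12.6-fold higher, Sema6d went from -3.46 and -3.68 to -0.16 and 0.44, and Plxna2, a semaphorin receptor, rose by 3.56 ± 0.55. Aplnr, the apelin receptor of migrating mesoderm, rose by 2.66 ± 0.55, and its ligand gene Apln by 1.85 ± 0.44. The 9 became 3, 1 and 1 without day 1 clone 1, day 1 clone 2 and day 3 clone 2, with Sema6d kept in each. Of 27 basement membrane and matrix genes 5 rose and 1 fell, the faller being Spp1 and the others including Flrt3 (2.38 ± 0.36), and the 5 became 1, 0 and 0 without the same 3 arrays.

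Markers of other cell types were examined beside these groups. Of 20 tested neural genes 3 fell and 1 rose: Pax6 fell by 2.47 on the log2 scale, Neurod1 was at least 3.22-fold lower, Tubb3 fell by 1.39, and Irx3 was at least 1.81-fold higher, and no call of these held without day 1 clone 1, day 1 clone 2 or day 3 clone 2. The trophoblast list had 4 of 13 higher, Hand1, Gata3 (at least 20.8-fold), Cdx2 (-2.01 and -3.74, then 0.58 and 0.75) and Eomes (0.86 and -0.24, then 3.26 and 3.20), all of which streak or mesoderm cells can also express. The 4 became 1, 0 and 0 without day 1 clone 1, day 1 clone 2 and day 3 clone 2. Of the 6 trophoblast markers Elf5 did not pass the filter on dim probes, Tfap2c and Krt7 were not called, and the summed linear signal of the other 5 was 2.54 and 1.59 at day 1 and 5.47 and 8.97 at day 3. The part of trophoblast cells in the gains of Hand1, Gata3 and Cdx2 was not tested. Feeder fibroblast markers did not rise: Postn and Lum did not pass the filter, the other 5 were not called, and their summed signal was 8.50 and 7.75 at day 1 and 5.22 and 4.99 at day 3. In the longer feeder list of 14 tested genes Mgp, a matrix protein gene, fell (-0.82 and -1.29, then -3.67 and -4.31).

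The difference between the 2 arrays of a day ran mostly in 1 direction within several lists. At day 1, clone 1 was higher for streak ligands in 11 of 13 genes (median 0.81), and at day 3 clone 2 was higher for most cardiac and lateral mesoderm, paraxial mesoderm, BMP and Hox genes and lower for most naive, core and germ cell genes. Core pluripotency genes were higher in day 3 clone 1 in 14 of 16 (median 0.42), and BMP genes in 8 of 27 (median -0.55). Genes of blood and endothelial progenitors were higher in day 3 clone 1 in 12 of 21 (median 0.19). Over all genes the medians were 0.07 at day 1 and 0.04 at day 3. Clone 1 was the higher array for 10310 of 17533 genes at day 1 and for 9638 at day 3.

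**Figure D3:**
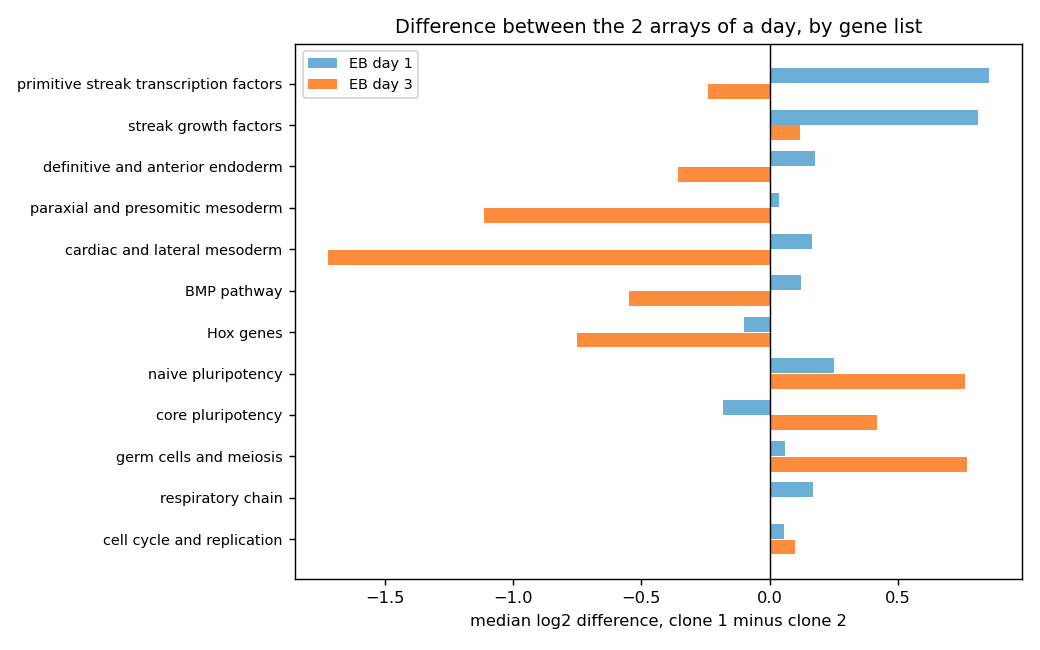
Median log2 difference between clone 1 and clone 2 (horizontal axis) within 12 gene lists, in blue for EB day 1 and orange for EB day 3. Streak transcription factors stand at 0.86 at day 1, and cardiac and lateral mesoderm genes at -1.72 at day 3.

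The clone difference also depended on the chromosome. On chromosomes 8 and 11 the median difference of clone 1 minus clone 2 was 0.22 and 0.22 at day 1 and 0.20 and 0.17 at day 3, whereas the 18 other chromosomes (Y aside) lay between 0.02 and 0.07 at day 1 and between -0.01 and 0.07 at day 3. Clone 1 was the higher array for 79.8% of 910 genes on chromosome 8 and for 77.5% of 1484 genes on chromosome 11 at day 1. Over all genes tested clone 1 was the higher at day 1 for 10310 of 17533. In ML day 1 the 2 chromosomes stood at 0.11 and 0.09 against -0.08 to -0.03 on the others (median -0.04). In ML day 3 they stood at 0.02, above the range of the others (-0.25 to 0.01), and at -0.01, near its upper end. Both were above the median of the others there, which was -0.13. In undifferentiated cells (0.02 and 0.03) and in EB day 4 (-0.01 and -0.02) they lay inside the range of the others. The medians of the others were 0.03 and -0.005 in these groups. The change from day 1 to day 3 had a median of -0.08 on chromosome 8 and -0.09 on chromosome 11, like all genes. Lhx1, Wnt3, Wnt3a, Hand1 and the Hoxb genes lie on chromosome 11, and Col4a1, Smad1 and Zfp42 on chromosome 8. The part of this shift in their clone differences was not tested.

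**Figure D4:**
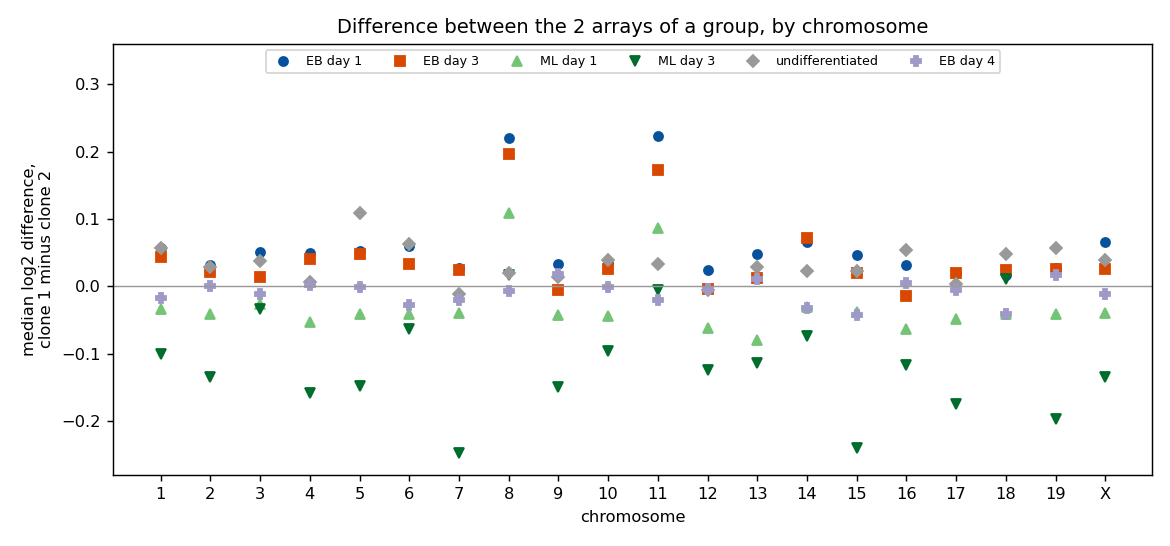
Median log2 difference between clone 1 and clone 2 (vertical axis) over the genes of each chromosome (horizontal axis), for the 6 groups. Chromosomes 8 and 11 stand apart in EB day 1 (0.22 and 0.22) and EB day 3 (0.20 and 0.17).

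The same interval in monolayers shows which changes embryoid bodies shared. Of the 551 genes higher in EB, 471 had the same sign in ML and 218 were also called higher there (5.80% of genes tested were), with a median ML change of 1.01. Of the 412 lower genes, 395 had the same sign and 296 were called lower (6.70% of genes tested were), with a median of -1.73. Over all genes tested the median ML change was -0.14. The share of all genes with the same sign in EB and ML was not counted, so the sign counts have no background here. T changed by 4.39 in EB and 4.46 in ML, Jam2 by -3.12 and -4.0, and Fgf8 by 2.87 and 4.56. Mesp1 changed by 8.64 in EB and 3.91 in ML and Lhx1 by 6.79 and 2.99, and neither difference passed its test (limma adjusted p = 0.121 and 0.136).

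The difference between the change in EB and the change in ML was called for 43 genes (0.245% of genes tested), 27 of them with the larger value in EB. Sox17 changed by 5.71 in EB and 0.98 in ML, and Gata6 by 5.80 and 1.28 (limma adjusted p of the difference 0.0437 and 0.0281). Mixl1 reached -0.02 and -0.48 in EB, while its change in ML was 0.59, and Mesp2 rose by 3.66 in EB and changed by -0.49 in ML. Msx1 rose by 3.53 against 0.58, and Cfc1 by 3.30 against 0.14. Spink1 rose by 5.07 in EB and fell by 2.66 in ML, and Pga5, a pepsinogen gene, rose by 3.04 and fell in ML to signals not well above background. Pilrb1 and Pilra, neighbouring receptor genes on chromosome 5, were at least 16-fold and 8.73-fold higher in EB, and Armc3 and the epithelial factor gene Spdef at least 12.7-fold and 8.73-fold. On the other side, class I histocompatibility genes were not called in EB and rose in ML. H2-K2 was at 2.39, 1.90, 2.19 and 2.09 on the 4 EB arrays and rose by 2.46 in ML, H2-Q4 rose by 2.14 in ML, H2-Q10 by 2.23 and H2-D4 by 2.47. These genes are near copies, so their probes may read each other's transcripts. Mgp fell by 2.93 in EB and was not well above background in ML at either day. Slc7a10, an amino acid transporter gene, rose in ML from signals not well above background and was not called in EB. The count of 43 was 0 without either day 1 array of EB, 6 without EB day 3 clone 2, 93 without EB day 3 clone 1, 2 and 0 without ML day 1 replicate 1 and 2, and 14 and 297 without ML day 3 replicate 1 and 2. It was 9 in a fit of the 8 arrays of EB and ML days 1 and 3, and in the 3 fits with 0 calls 1296, 1263 and 1237 genes had an unadjusted limma p under 0.05.

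**Figure D5:**
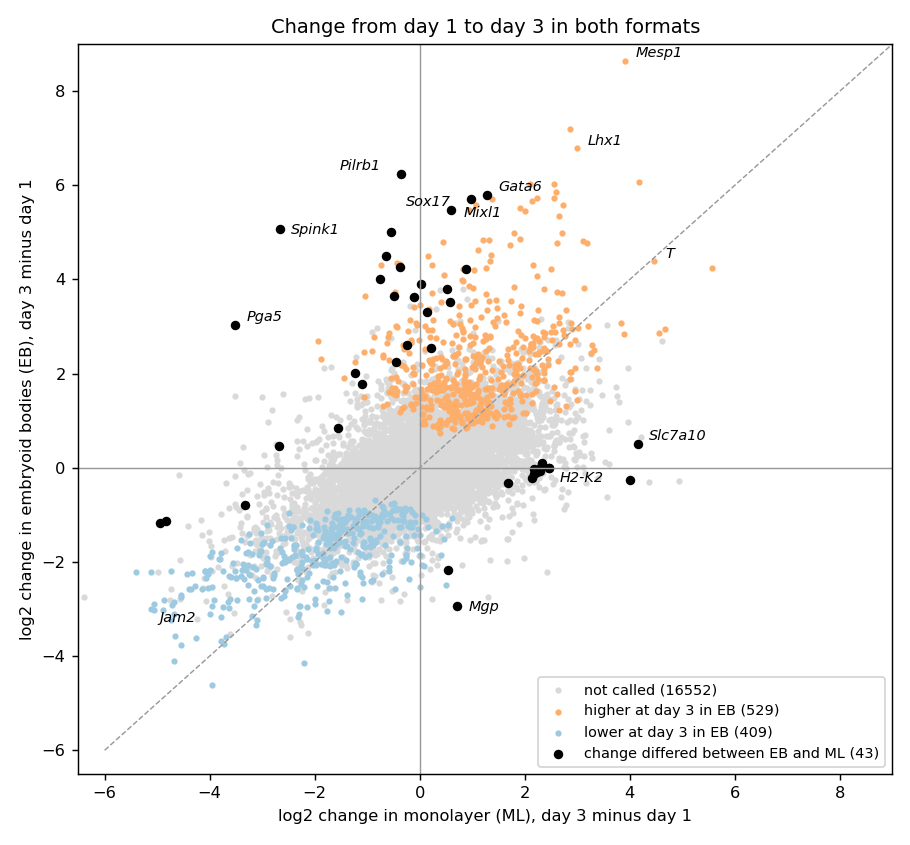
Log2 change from day 1 to day 3 in ML (horizontal axis) and in EB (vertical axis) for each gene, with the dashed line where both are equal. Orange and blue points were called higher and lower in EB, and the 43 black points, drawn in no other class, had a change that differed between EB and ML. Sox17, Gata6, Mixl1 and Spink1 lie far above the line, and Mgp and Slc7a10 below it.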

How the data were processed

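RNA of 12 mouse embryonic stem cell samples in 6 groups of 2 was hybridised to 1-colour Agilent arrays (43379 spots without controls, 41174 probes). The deposited intensity of each spot had its background subtracted and its spatial trend removed within the array, per the file headers. These name Feature Extraction 10.5.1.1, 10.7.3.1 and 10.7.1.1 and probe positions of build mm9, whereas the submitters' processing notes name version 9.5.1.1. The authors' deposited table of intensity values on a linear scale has equal quantiles in every array and was used as an alternative.

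The main value was log2 of the processed intensity minus the array's 75th percentile, so 0 is the level of that percentile, and a difference of 1 is 2-fold. Spots with an outlier mark (51 to 172 per array) were left out, and no spot was saturated. Probes had to be well above background on the 2 arrays of some group, which 26176 of 41174 were. The brightest probe on average stood for its gene (17533 genes, 15130 with a RefSeq symbol). Names came from RefSeq through accession (26986 probes), symbol (5339) or synonym (1078), and otherwise from the file (7771). limma 3.58.1 in R 4.3.3 fitted all 12 arrays with a mean for each of the 6 groups, leaving 6 residual degrees of freedom, with Benjamini-Hochberg adjustment over all genes and calls at an adjusted p under 0.05. Changes are given with their standard error from that fit, with 2 arrays a group. All tests were two-sided. The code was tested on simulated data.

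EB days 1 and 3 shared 1 slide and scan day, and ML days 1 and 3 shared another slide of the same scan day, so each day effect lies within a slide. In the difference between EB and ML the slide effects common to both days cancel. Replicate numbers were not used as pairs, since the labels do not settle whether equal numbers mark the same cells. The clone differences of EB day 1 and EB day 3 correlated across genes at only 0.09 (between -0.16 and 0.23 over all pairs of groups). On chromosomes 8 and 11, however, clone 1 was the higher at both days (medians 0.22 and 0.22, then 0.20 and 0.17), so these values do not decide whether the numbers pair.

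The members and gene lists were chosen with earlier results of these data known, so list counts are descriptions and no list was tested as a set. The genes named are the 4 markers given for the comparison, the 20 largest changes each way among called genes whose days did not overlap, up to 8 members of each list, the 8 largest differences each way between EB and ML, and the cell type markers. Not every such gene is described. No gene had 1 probe called higher and another called lower. Probes gave all changes the same sign in 364 of 399 genes with several probes and a call. Alternatives were normexp background correction (offset 50), quantile normalization, the authors' values, other filters on dim probes, the mean of a gene's probes, smaller fits, a trended variance prior, a replicate block, and leaving out each array.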

Additional observations from a re-analysis of the deposited data

Results flagged for a closer look

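The change from day 1 to day 3 differed between EB and ML, by a limma test of the difference itself, for 43 genes, of which 18 are named here. Each value is the log2 change in EB minus that in ML, and the adjusted p lay between 0.0127 and 0.0437 for all 18. Of these 18 calls, 15 were lost without a filter on dim probes and 15 in the fit of 8 arrays. Among genes of the streak, endoderm, Nodal and BMP lists the change was larger in EB for Mixl1 by 4.88, Mesp2 by 4.14, Cfc1 by 3.16, Msx1 by 2.95, Gata6 by 4.52 and Sox17 by 4.73. The difference was called for 2 of 17 streak transcription factors and 2 of 22 genes of definitive and anterior endoderm, so most members of these lists were not called. The difference was also positive for Spink1 (7.74), Pga5 (6.55), Pilrb1 (6.60), Pilra (5.55), Armc3 (5.14) and Spdef (4.77). The difference was negative for Mgp (-3.65) and Slc7a10 (-3.64), and for the class I histocompatibility genes H2-K2 (-2.47), H2-Q4 (-2.36), H2-Q10 (-2.33) and H2-D4 (-2.47), whose near-identical copies may share signal. For Mixl1, Pilrb1, Pilra, Armc3, Spdef and Slc7a10 the EB day 1 arrays were not well above background, and for Mgp, Pga5, Pilrb1, Pilra, Armc3 and Spdef the ML day 3 arrays were not, so these differences rest in part on signals near the background.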

How the results depend on the processing

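The count of 963 genes for EB day 3 against EB day 1 was 1049 with normexp, 851 with quantile normalization, 851 with the authors' values, 969 with the mean of a gene's probes, 671 in a fit of these 4 arrays, 817 in a fit of 8 arrays and 1086 with a trended prior. It was 576 without a filter on dim probes (the cause was not tested) and 640 with a strict filter, which tested 13349 genes. With 1 EB array left out it ranged from 103 to 996. The count of 43 genes for the difference between EB and ML was 6 without a filter and 9 in the fit of 8 arrays (the cause was not tested), lay between 31 and 50 in the other fits of all 12 arrays, and ranged from 0 to 297 with 1 array left out. With the replicate block the counts were 904 and 50, though the numbers are not known to pair the samples. With it 8 of 114 named called genes and 2 of 18 for the difference lost their call. Of these 18, calls were lost for 6 with normexp, 2 with quantile normalization, 15 without a filter and 15 in the fit of 8 arrays. With the strict filter 10 of the 18 could be tested and kept their call.

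No named called gene changed direction under any alternative run, and with the strict filter 72 of the 114 could be tested and kept their call. Of the 114, calls were lost for 16 with normexp, 5 with quantile normalization, 27 without a filter and 31 in the fit of 4 arrays, and for 64, 80, 17 and 78 without day 1 clone 1, day 1 clone 2, day 3 clone 1 and day 3 clone 2. Changes that were not called turned sign for Dnmt3b (0.0416 with quantile normalization and 0.0426 with the authors' values) and Cdh1 (0.0119 and 0.0166). With single arrays left out the change ranged from -0.98 to 0.0206 for Nodal, from -0.26 to 0.49 for Nanog (-0.18 without day 1 clone 2), from -0.17 to 0.23 for Otx2 (-0.09 without day 1 clone 1), from -0.55 to 0.23 for Dnmt3b, from -0.70 to 1.72 for Bmp4, from -0.12 to 4.45 for Hoxb2 and from -0.48 to 0.19 for Cdh1. The cause was not tested. The 2 arrays of a day limit the precision, and signals not well above background give only bounds.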

Other observations

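Metabolic and stress genes had few calls, and over all genes tested 3.14% were called higher and 2.35% lower. Of 30 genes of glycolysis and hypoxia 3 rose: Ndrg1, a stress-induced gene (0.96 and 0.01 at day 1, then 3.07 and 3.86, change 2.98 ± 0.56), Egln1, the oxygen-sensing prolyl hydroxylase (2.36 ± 0.36), and P4ha2, a collagen prolyl hydroxylase (1.42 ± 0.28). In 21 of the 30 both day 3 arrays were above both day 1 arrays, against 25.1% of all genes. The list's median was 0.72 against -0.08 over all genes, and its median in ML was -0.07. None of these 3 was called without day 1 clone 1, day 1 clone 2 or day 3 clone 2, and a difference from ML was called by limma for 0 of the 30, with unadjusted p of 0.0364 for Ndrg1 and 0.0335 for Egln1. Of 25 tested genes of the amino acid stress response 1 rose, Vldlr, a lipoprotein receptor gene (4.24 ± 0.73), which changed by 5.57 in ML and lost its EB call without day 1 clone 1, day 1 clone 2 or day 3 clone 2. The list's median was -0.21 in EB and 1.42 in ML.

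Of 36 genes of the cell cycle and replication 2 fell, both of them cyclin-dependent kinase inhibitor genes that neighbour each other on chromosome 4. Cdkn2a went from -2.88 and -3.11 to -4.03 and -4.72, and Cdkn2b from 0.31 and 0.42 to -1.31 and -0.52, and in ML they changed by -1.12 and -0.89. Cdkn2a lost its call without day 1 clone 1, day 1 clone 2 or day 3 clone 2, and Cdkn2b without day 1 clone 1, day 1 clone 2 or day 3 clone 1. In 5 further lists limma called 0 genes. At an unadjusted limma p under 0.05, 2 of 29 respiratory chain genes were lower, 0 of 27 sterol and fatty acid synthesis genes passed, 6 of 23 p53 targets were lower and 1 higher, 5 of 19 LIF and STAT3 response genes were lower, and 2 of 8 genes of the two-cell-like state were lower. Over all genes tested 10.13% were lower and 10.04% higher at that p. The medians of the 5 lists were -0.22, -0.14, -0.48, -0.33 and -0.30. Within day 1, clone 1 was the higher array for 28 of the 29 respiratory chain genes, against 10310 of the 17533 genes tested.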
